A study of Drosophila melanogaster with 9 samples.

Results

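The transcription factors, receptor and marker genes that define blood cell identity in the fly were examined in S2R+ cells depleted of the RNA-binding protein Hrb98DE. The genes were srp, ush, lz, gcm, gcm2, kn, Pvr, Hml and chinmo. They were found through their FlyBase identifiers in the read count table of every library and make up 9 of the 17559 genes counted.

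S2R+ is an adherent Drosophila cell line derived from late embryos, labelled with the strain Oregon R. The cells were grown at 25 °C and received double-stranded RNA (dsRNA) during serum starvation for 6 h, and harvest followed on day 5 counted from the first treatment. The groups KD1 and KD2 received different dsRNAs against Hrb98DE, and the control group lacZ received a dsRNA against a bacterial gene that flies lack. Each group held 3 replicates of polyadenylated RNA from this single cell line, the study calls its replicates biological, and KD1 and KD2 were compared with the same lacZ libraries.

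Fly blood cells (hemocytes) arise from head mesoderm in the embryo and later from the lymph gland. The GATA factor Serpent (srp) sets up the blood lineage. The Gcm factors drive plasmatocytes, the macrophage-like cells, while the Runx factor Lozenge (lz) drives crystal cells and Knot (kn), also called Collier, acts in the lymph gland niche and in lamellocyte formation. The receptor Pvr supports migration and survival of hemocytes, and Hemolectin (Hml), a secreted clotting protein, is the usual marker of plasmatocytes.

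Libraries held between 13040608 and 15931035 reads assigned to genes. A gene was tested if its mean CPM, the read count scaled to a common library total, exceeded 1 over the 9 libraries, which kept 7406 genes, and a gene was past the threshold at a DESeq2 adjusted p under 0.05 with a fold change above 1.3. Relative to lacZ, KD1 cells retained 14.1% ± 1.403 and KD2 cells 15.5% ± 1.05 of Hrb98DE mRNA (SD, n = 3 each). Its relative Hrb87F was lowered as well, to 41.7% in KD1 and 23.3% in KD2, so the libraries hold reduced amounts of both mRNAs. Values below are normalised read counts unless another scale is named.

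Most of the blood cell regulators with measurable mRNA kept a level close to that of lacZ, and the marker Hml was the exception. Of the 9 genes, 5 passed the filter on low counts (srp, ush, Pvr, Hml and chinmo). Hml rose in both knockdowns by about the same amount, reaching 163% ± 14.2 of lacZ with KD1 and 166% ± 18.3 with KD2 (SD, n = 3 each). It was the 1 of 5 past the threshold in each comparison with lacZ, where 7.37% of all genes tested were past it in KD1 and 8.13% in KD2. At an unadjusted p under 0.05 stood 1 of the 5 in KD1, beside 31.7% of all genes, and 4 of the 5 in KD2, beside 33.2%. Between KD1 and KD2, DESeq2 gave an adjusted p to 2094 genes, among them 4 of the 5, without Hml. Of these 4, 0 were past the threshold, beside 1 of the 2094, which is 0.0135% of the 7406 genes tested. In that comparison 2 of the 5, srp and chinmo, had an unadjusted p under 0.05, beside 5.18% of all genes, and the edgeR quasi-likelihood test, which gave all 5 an adjusted p, placed 0 past the threshold. Among the 4 that missed the threshold against lacZ, every change was smaller than 1.3-fold, also at the ends of the 95% intervals.

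**Figure D1:**
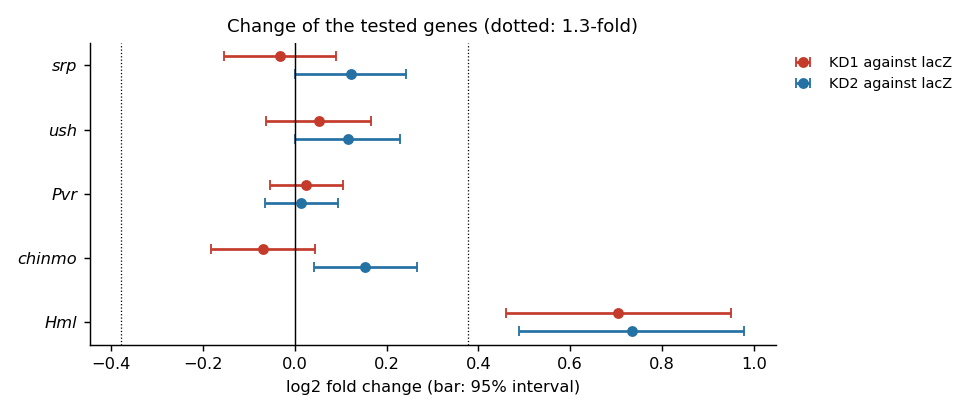
Log2 fold change (x axis) of each of the 5 tested genes in KD1 and KD2 against lacZ, with bars for the 95% interval (DESeq2) and dotted lines at a 1.3-fold change. Hml lies at 0.71 and 0.73 with both intervals beyond the dotted line, while the other 4 genes lie between -0.07 and 0.15.

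The levels of these genes in control cells differed widely. To compare genes, CPM was divided by the kilobases of annotated exon (RPKM). Pvr was highest at 114 RPKM ± 2.08, above 90.8% of the 7244 tested genes with an exon length (SD, n = 3 lacZ libraries). The FOG-type cofactor ush followed at 59.2 RPKM ± 1.99 and srp at 32.8 ± 0.914. The order thus placed the receptor first and the GATA factor with its cofactor next, all in the upper part of the range of tested genes. The zinc finger factor chinmo was at 13.2 RPKM ± 0.259 and Hml at 1.03 ± 0.0926, above only 4.75% of the genes. Each of these 5 levels was separated from its neighbours, since the ranges over the lacZ libraries did not overlap, and the order was the same in the means of KD1 and KD2. Hml, the marker that changed, was therefore the weakest of the measurable genes, at 1.64 RPKM ± 0.139 in KD1 and 1.67 ± 0.188 in KD2.

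**Figure D2:**
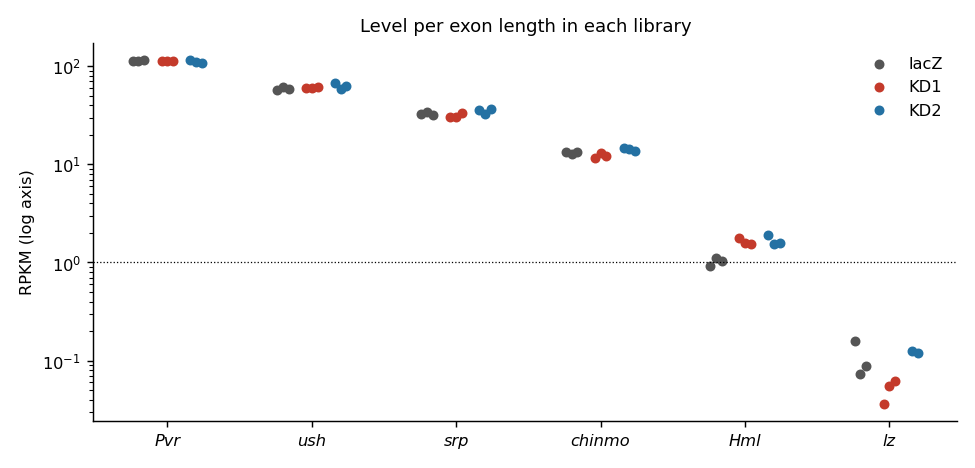
Level per exon length in RPKM (log axis) of the 6 genes with reads in most libraries, with 1 point per library in lacZ, KD1 and KD2 and a dotted line at 1 RPKM. The lacZ means fall from 114 for Pvr through 59.2 for ush, 32.8 for srp and 13.2 for chinmo to 1.03 for Hml and 0.107 for lz, whose KD2 replicate 2 is at 0 and is left off the log axis.

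The lineage factors that act downstream of srp in particular blood cell types were at or near 0 reads. The gcm gene (FBgn0014179, chromosome 2L, 9579498 to 9581745 of BDGP6, minus strand) encodes the founding Gcm factor, which acts in hemocytes and in glia. It had 0 reads in each of the 9 libraries. The niche factor gene kn (FBgn0001319, chromosome 2R, 14772650 to 14807061, minus strand) likewise had 0 reads in each. Over 133638722 reads in all, a count of 0 allows up to 3 reads or 0.0224 CPM. In exon length units this is 0.0103 RPKM for gcm and 0.00511 RPKM for kn, limits that cover counting error only. The related gene gcm2 (FBgn0019809, chromosome 2L, 9608562 to 9612706, plus strand), which acts together with gcm, had 1 read in KD2 replicate 2 and 0 in the other 8 libraries. Within 1 library the limit from a count of 0 was 0.188 to 0.230 CPM, so a difference between the groups below this limit was not detectable for these genes.

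A trace of lz was present. The lz gene (FBgn0002576, chromosome X, 9284649 to 9303636, plus strand) had 8, 4 and 4 reads in lacZ replicates 1, 2 and 3. It had 2, 3 and 3 reads in KD1 replicates 1, 3 and 4, and 7, 0 and 6 in KD2 replicates 1, 2 and 4. The 37 reads in all gave 0.107 RPKM ± 0.0455 in lacZ, and the KD2 libraries alone covered almost the whole range seen in the series. All KD1 libraries lay below all lacZ libraries, by 8 reads against 16 in sum, but the gene stayed under the filter and was not tested. Among the genes that were tested, 39.5% had no overlap between KD1 and lacZ, in either direction. Its partner subunit gene Bgb, a CBF-beta protein that binds DNA together with Runx factors, was at 53.6 RPKM in lacZ. The other Runx genes run, RunxA and RunxB had at most 5 reads in a library, and Bro, the second CBF-beta gene, had at most 1.

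The srp gene (FBgn0003507, chromosome 3R, 15986152 to 16004085, plus strand, 7 annotated transcripts) had 2767, 2921 and 2697 normalised reads in lacZ replicates 1, 2 and 3. It had 2636, 2639 and 2933 in KD1 replicates 1, 3 and 4 and 3088, 2869 and 3169 in KD2 replicates 1, 2 and 4. The KD1 and KD2 libraries both overlapped the lacZ libraries, with KD1 replicate 4 above every lacZ library and KD2 replicate 2 inside their range. In KD1 srp changed by -0.03 ± 0.06 on the log2 scale (SE; 95% interval -0.15 to 0.09; adjusted p = 0.778). The KD2 value was 0.12 ± 0.06 (95% interval 0.0005 to 0.24; adjusted p = 0.149). Without KD2 replicate 2, the lowest KD2 library, the KD2 value was 0.16 with an adjusted p of 0.0495, still under 1.3-fold. Between the dsRNAs srp differed by -0.15 ± 0.06 (adjusted p = 0.329).

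The ush gene (FBgn0003963, chromosome 2L, 476220 to 540560, plus strand, 5 annotated transcripts) encodes U-shaped, a zinc finger protein of the Friend-of-GATA family that binds GATA factors and restrains crystal cell fate. Its normalised reads were 5595, 6079.6 and 5711 in lacZ, 5949.8, 5901 and 6175 in KD1 and 6675, 5814 and 6341 in KD2, in the same order of replicates. The ranges overlapped in both comparisons. For KD1 the log2 change of ush was 0.05 ± 0.06 (95% interval -0.06 to 0.17; adjusted p = 0.583), and for KD2 it was 0.12 ± 0.06 (0.0015 to 0.23; adjusted p = 0.145). Without KD2 replicate 2 the KD2 value was 0.17 with an adjusted p of 0.0144, again under 1.3-fold. The ratio of ush to srp reads, which needs no scaling between libraries, stood at 2.07 ± 0.0482 for lacZ, 2.20 ± 0.0821 for KD1 and 2.06 ± 0.0863 for KD2 (SD, n = 3 each). The GATA factor and its cofactor thus kept nearly the same proportion of reads.

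The partners and relatives of these factors were read from a list of 14 genes, of which 9 were tested. In KD1, 0 rose and 1 fell, and in KD2 0 were past the threshold (DESeq2), beside 7.37% and 8.13% of all genes. In KD2, 3 had an unadjusted p under 0.05, beside 33.2% of all genes, and edgeR placed 0 past the threshold. The median change of the list was -0.04 for KD1 and 0.04 for KD2 on the log2 scale, beside 0.0003 and 0.0037 over all genes tested. The most abundant of the list, the zinc finger repressor zfh1, changed by -0.12 (adjusted p = 0.138) and -0.01 (adjusted p = 0.941). The gene that fell, chosen after its values were seen, was GATAe, the endodermal GATA factor. GATAe changed by -0.63 ± 0.22 in KD1 (adjusted p = 0.0212) and by -0.35 in KD2 (adjusted p = 0.243). This call rested on 41 to 70 reads per library and was lost without any 1 of KD1 replicates 1, 3 or 4 or lacZ replicates 1 or 3, with adjusted p from 0.0712 to 0.153, and it fell below 1.3-fold with the fold-change prior (-0.35). The GATA factor gene pnr, at 59.0 RPKM in lacZ, changed by -0.01 and 0.12 (adjusted p = 0.947 and 0.0537). The corepressor gene CtBP, also named after its values were seen, changed by 0.12 ± 0.06 in KD1 (adjusted p = 0.128). In KD2 CtBP changed by 0.34 ± 0.06 (adjusted p = 2.21e-07), under 1.3-fold.

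The receptor gene Pvr (FBgn0032006, chromosome 2L, 8220980 to 8239878, minus strand, 13 annotated transcripts) encodes the single fly receptor related to the mammalian PDGF and VEGF receptors. It was the steadiest gene of the group. Its normalised reads were 10896, 11088 and 11142 in lacZ, 11338, 11032 and 11348 in KD1 and 11504, 11087 and 10872 in KD2. All groups overlapped, and the coefficient of variation within a group was 1.17% to 2.88%. Pvr changed by 0.03 ± 0.04 in KD1 (log2; 95% interval -0.05 to 0.11; adjusted p = 0.722) and by 0.01 ± 0.04 in KD2 (-0.07 to 0.09; adjusted p = 0.851). These intervals are the narrowest among the 5 genes.

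A ligand of the receptor did change. Of 9 genes listed as ligands of Pvr or as proteins that act with it, 8 were tested. Past the threshold were 0 higher and 1 lower in KD1 and 1 higher and 1 lower in KD2, beside 7.37% and 8.13% of all genes. The list median was -0.08 for KD1 and 0.04 for KD2. The ligand gene Pvf2, at 74.8 RPKM ± 8.58 in lacZ, had 2467, 2019.9 and 2391 normalised reads in lacZ, 1534, 1728 and 1600.2 in KD1 and 1585, 1473 and 1607 in KD2. Every knockdown library lay below every lacZ library, beside 39.5% of all genes without overlap in KD1 and 38.1% in KD2, in either direction. In log2 units Pvf2 fell by 0.50 ± 0.08 with KD1 (adjusted p = 6.55e-09) and fell by 0.56 ± 0.08 with KD2 (adjusted p = 4.52e-11). Where ligands are concerned the change was seen for Pvf2 alone among those measured, since Pvf3 changed by -0.19 ± 0.11 (adjusted p = 0.239) and -0.01 ± 0.11 (adjusted p = 0.976) and Pvf1 had at most 2 reads in a library. Whether Pvf2 and Pvf3 differ in their change was not tested.

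The gene that rose in KD2, named after its values were seen, was mbc, which encodes Myoblast city, an activator of the small GTPase Rac in migrating cells. Its normalised reads were 2999, 3165 and 3052 in lacZ, 3477, 3373 and 3616 in KD1 and 4112, 4007 and 3931 in KD2, with no overlap between any of the groups. Of all genes, 39.5% were without overlap between KD1 and lacZ, 38.1% between KD2 and lacZ and 14.1% between KD1 and KD2. Its change was 0.18 ± 0.05 in KD1 (log2; adjusted p = 0.00242, under 1.3-fold) and 0.39 ± 0.05 in KD2 (adjusted p = 5.69e-13). The KD2 value lies close to the fold limit and dropped below it without KD2 replicate 1 or lacZ replicate 1 and with the fold-change prior (0.37 each). The Rac genes themselves did not pass the threshold, with 0.03 in KD1 and 0.09 in KD2 for Rac1 and -0.16 and -0.09 for Rac2.

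The factor chinmo (FBgn0086758, chromosome 2L, 1651258 to 1704682, plus strand, 6 annotated transcripts) is a BTB zinc finger protein that keeps cells in an early temporal state in several tissues. Its normalised reads were 2452, 2401 and 2413 in lacZ, 2189, 2466 and 2269 in KD1 and 2772, 2713 and 2593 in KD2. All KD2 libraries lay above all lacZ and all KD1 libraries, while KD1 replicate 3 exceeded the lacZ libraries and the other KD1 libraries lay below them. Of all genes tested, 38.1% showed such a separation between KD2 and lacZ and 14.1% between KD1 and KD2, in either direction. The estimates for chinmo were -0.07 ± 0.06 in KD1 (log2; 95% interval -0.18 to 0.04; adjusted p = 0.438) and 0.15 ± 0.06 for KD2 (0.04 to 0.27; adjusted p = 0.0348). A fold of 1.11 kept chinmo under the threshold in KD2, and 23.6% of all genes reached an adjusted p under 0.05 there, against 21.2% with KD1.

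In the direct test of KD1 against KD2, chinmo had a log2 difference of -0.22 ± 0.06 (95% interval -0.33 to -0.11; adjusted p = 0.0273). It was 1 of 12 genes with an adjusted p under 0.05 in that comparison, which are 0.162% of the 7406 genes and 0.573% of the 2094 that received an adjusted p. The difference did not hold up under other settings. Over 18 alternatives the log2 difference stayed between -0.27 and -0.12, yet the adjusted p was under 0.05 in 6 of them, and edgeR gave 0.404. It was lost without KD1 replicate 1 or 4, without any 1 KD2 library and without lacZ replicate 1 or 3. The change in KD2 against lacZ was under an adjusted p of 0.05 in 9 of 18 alternatives (0.00189 to 0.193). It missed this level without any 1 KD2 library, any 1 lacZ library or KD1 replicate 4. A correction for exon length, added after the data were seen, turned the KD1 value to 0.07 and reduced the difference between KD1 and KD2 to -0.12. The chinmo transcript models cover 12618 exon bases. At that length the trend fitted over genes stood at -0.14 in KD1 and -0.05 in KD2 against lacZ (log2). Whether exon length acts on chinmo itself was not tested.

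Among 6 genes listed as acting with or on chinmo in the timing of cell fates, 4 were matched and 3 tested. In KD1 0 rose and 1 fell, and in KD2 0 were past the threshold (DESeq2), beside 7.37% and 8.13% of all genes. In KD2 1 had an unadjusted p under 0.05, beside 33.2% of all genes, and edgeR placed 0 past the threshold. The most abundant, Syp, which encodes the RNA-binding protein Syncrip that represses chinmo in neural progenitors, changed by -0.06 in KD1 (adjusted p = 0.676) and 0.18 in KD2 (adjusted p = 0.0708). The gene that fell, named after its values were seen, was Eip93F, an ecdysone-induced factor. Its values were -0.88 ± 0.27 in KD1 (adjusted p = 0.00933) and -0.47 in KD2 (adjusted p = 0.198), from 20 to 67 reads per library. The KD1 call was lost without KD1 replicate 1 (0.053), KD1 replicate 4 (0.104) or lacZ replicate 2 (0.0943).

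Hml (FBgn0029167, chromosome 3L, 13846054 to 13860001, plus strand, 2 annotated transcripts and 11756 exon bases) was the gene of the group that changed. It had 159, 193 and 177 normalised reads in lacZ replicates 1, 2 and 3. It had 315, 277 and 269 in KD1 replicates 1, 3 and 4, and 330.0, 273 and 275 in KD2 replicates 1, 2 and 4. The lowest knockdown library, KD1 replicate 4, stood well above the highest control library, lacZ replicate 2, and replicate 1 was the highest in both knockdowns. Without overlap in either direction were 39.5% of all genes in KD1 and 38.1% in KD2. Group means were 176 ± 17.2 for lacZ, 287 ± 24.9 for KD1 and 293 ± 32.2 for KD2 (SD, n = 3 each). Behind these values were 158 to 204 raw reads per lacZ library and 253 to 353 per knockdown library.

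**Figure D3:**
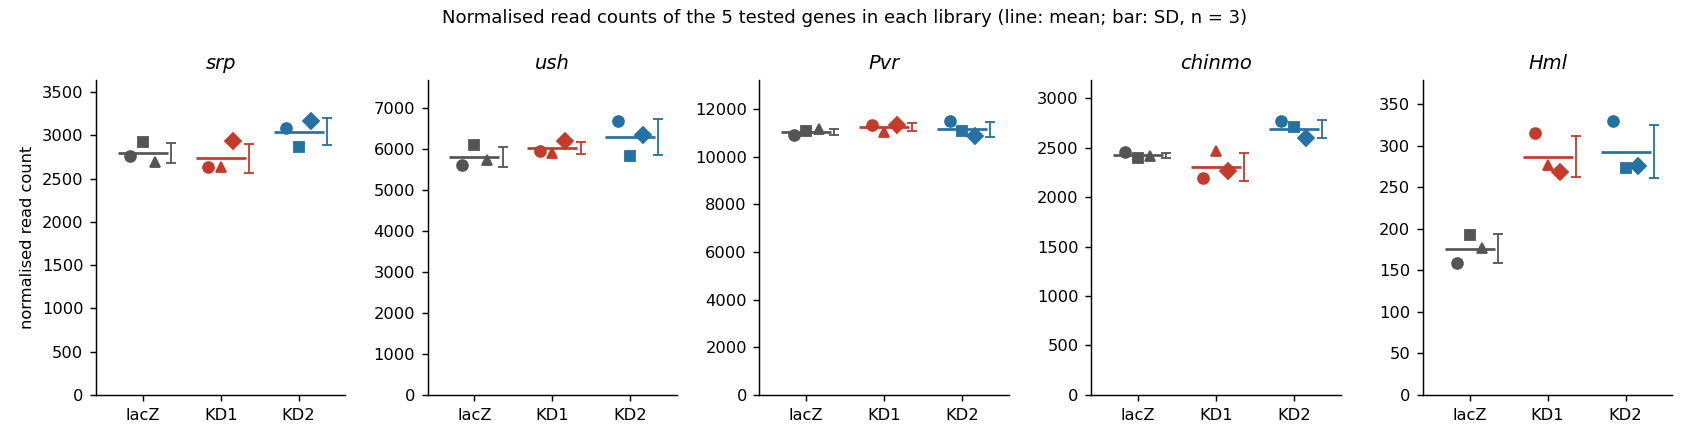
Normalised read counts (y axes from 0) of srp, ush, Pvr, chinmo and Hml in each of the 9 libraries, with a line at the group mean, a bar for the SD (n = 3) and marker shapes for the replicate number (circle 1, square 2, triangle 3, diamond 4). The Hml counts are 159 to 193 in lacZ and 269 to 330.0 in the knockdowns with a clear gap between them, whereas in the other panels at least 1 knockdown library lies within or below the lacZ range.

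In KD1 Hml rose by 0.71 ± 0.13 on the log2 scale (SE; 95% interval 0.46 to 0.95; adjusted p = 6.14e-07), a fold of 1.63 with an interval of 1.38 to 1.93. In KD2 it was 0.73 ± 0.13 (0.49 to 0.98; adjusted p = 1.54e-07), a fold of 1.66 with an interval of 1.404 to 1.97. Of all genes tested, 2.24% rose past the threshold in KD1 and 2.93% in KD2. The absolute change of Hml exceeded that of 96.7% of genes in KD1 and 96.4% in KD2. Between KD1 and KD2 the difference was -0.03 ± 0.12 with a 95% interval of -0.26 to 0.20 (unadjusted p = 0.804, DESeq2; edgeR adjusted p = 0.963), an interval that still allows a modest difference. In bulk RNA, more Hml mRNA per cell and a larger share of cells with Hml mRNA cannot be told apart.

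Hml was also counted per read of the other members, which needs no scaling between libraries but uses the same Hml reads again. Per 100 srp reads, Hml had 6.30 ± 0.492 reads in lacZ, with a range of 5.73 to 6.60. It had 10.5 ± 1.403 in KD1, with a range of 9.16 to 11.96, and 9.63 ± 1.005 in KD2, with a range of 8.69 to 10.7 (SD, n = 3 each). No knockdown library overlapped a lacZ library in this ratio, as in the Hml counts themselves. Per 100 Pvr reads the means were 1.59 in lacZ, 2.55 in KD1 and 2.62 in KD2, and per 100 ush reads 3.03, 4.78 and 4.66. With srp, ush and Pvr near their lacZ levels, these ratios restate the change of Hml and are not separate support for it.

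**Figure D4:**
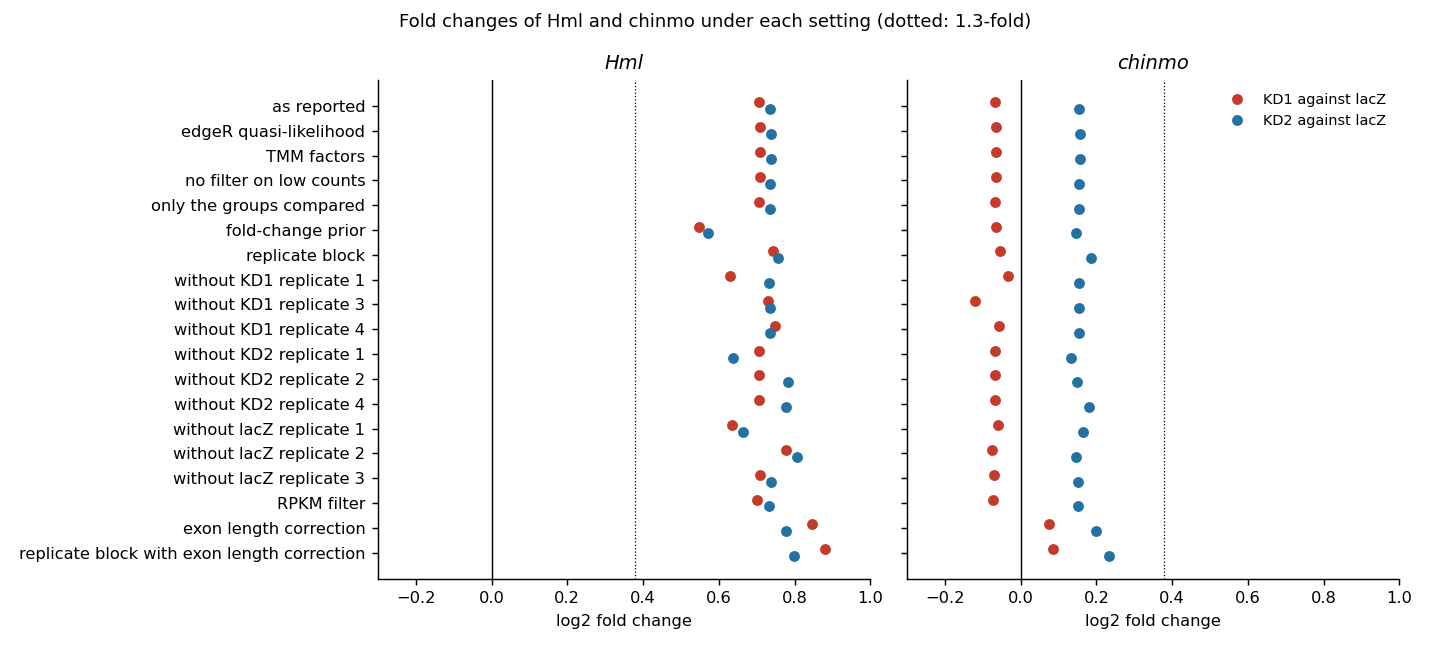
Log2 fold changes (x axes) of Hml and chinmo in KD1 and KD2 against lacZ under the reported fit and 18 alternatives, 1 line each, with dotted lines at a 1.3-fold change. Hml stays between 0.55 and 0.88 in KD1 and between 0.57 and 0.81 in KD2, while chinmo in KD1 runs from -0.12 to 0.09 and changes sign with the exon length correction.

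Hml stayed past the threshold in both knockdowns under each of the 18 alternatives, with adjusted p between 3.92e-10 and 0.00131 in KD1 and between 1.01e-08 and 0.000924 in KD2. Leaving out 1 library at a time gave 0.63 to 0.78 in KD1 and 0.64 to 0.81 in KD2. At the length of Hml the trend fitted over genes stood at -0.14 in KD1 and -0.04 in KD2. With the correction, which takes this trend out, the Hml values were 0.85 and 0.78. Whether exon length acts on Hml itself was not tested.

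The plasmatocyte markers as a list were then examined, to place Hml among the other genes of this cell type. Of 10 genes listed, 9 were matched and 8 tested. By DESeq2 4 rose and 0 fell in each knockdown, beside 7.37% and 8.13% of all genes past the threshold in either direction. By edgeR 5 of the 8 were past it in KD1 and 4 in KD2, in either direction. No alternative placed more than 4 past it as higher in KD1, so not all of these 5 were higher. Of the tested markers with a negative DESeq2 estimate in KD1, only He (-0.67) was beyond 1.3-fold. The list median was 0.29 in KD1 and 0.36 in KD2. With a prior that shrinks fold changes, 2 were past the threshold in KD1, where Ppn (0.34) and vkg (0.37) fell below 1.3-fold, and 3 in KD2, where vkg did (0.35). The 4 that rose were the scavenger receptor gene Sr-CI and 3 genes of extracellular matrix proteins, namely Ppn (papilin) and the collagen IV chains Col4a1 and vkg. Fat body and other tissues also make these matrix proteins, so they are not particular to plasmatocytes. The list was chosen with earlier results of these data known, and its counts are given as a description.

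Sr-CI had 836, 917 and 989.7 normalised reads in lacZ, 1441, 1309.6 and 1325 in KD1 and 1488, 1344 and 1410.2 in KD2. It rose by 0.57 ± 0.07 in KD1 (log2; adjusted p = 1.61e-12) and by 0.63 ± 0.07 in KD2 (adjusted p = 3.14e-15). All knockdown libraries exceeded all lacZ libraries. Without overlap, in either direction, were 39.5% of all genes in KD1 and 38.1% in KD2. Col4a1 had 312, 303 and 338 in lacZ, 485, 459 and 442 in KD1 and 455, 494 and 468 in KD2, and its log2 fold change was 0.54 ± 0.09 (adjusted p = 1.59e-07) and 0.57 ± 0.09 (adjusted p = 2.11e-08). The second collagen IV chain, vkg, had 191, 183 and 194 in lacZ, 263, 247 and 271 in KD1 and 238, 271 and 259.8 in KD2. Its change was 0.46 ± 0.11 in KD1 (adjusted p = 0.000747) and 0.44 ± 0.12 in KD2 (adjusted p = 0.00131). With the replicate number as a block in the DESeq2 fit, the adjusted p of vkg was 0.0958 and 0.140. Both chains, which assemble into the same collagen trimer, thus stood higher in every knockdown library than in any lacZ library.

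Ppn had 411, 418 and 466 normalised reads in lacZ, 581, 583 and 532 in KD1 and 659, 770.0 and 656 in KD2. It rose by 0.39 ± 0.09 in KD1 (adjusted p = 0.000294) and by 0.69 ± 0.09 in KD2 (adjusted p = 2.67e-12). The KD1 value lies at the fold limit and fell below it (0.36 to 0.37) without any 1 of KD1 replicates 1 or 3 or lacZ replicates 1 or 2. The basement membrane peroxidase gene Pxn, a general blood cell marker, changed by 0.18 ± 0.06 in KD1 (adjusted p = 0.0200) and 0.29 ± 0.06 in KD2 (adjusted p = 3.49e-05), both under 1.3-fold.

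Of the receptor genes in the list besides Sr-CI, eater and crq had negative estimates that missed the threshold, and their difference from Sr-CI was not tested. The gene eater, which encodes a receptor for bacteria, had -0.31 ± 0.14 in KD1 (adjusted p = 0.103) and -0.34 ± 0.14 in KD2 (adjusted p = 0.0600). Its knockdown libraries all lay below its lacZ libraries. Such a separation, in either direction, held for 39.5% of all genes in KD1 and 38.1% in KD2. The CD36-related receptor gene crq, the most abundant of the list at 138 RPKM in lacZ, had -0.10 (adjusted p = 0.276) and -0.15 (adjusted p = 0.0554). The membrane marker He had -0.67 ± 0.30 (DESeq2 adjusted p = 0.0972) and -0.48 ± 0.29 (DESeq2 adjusted p = 0.247), from 21 to 46 reads per library. The receptor gene NimC1, the standard antigen of mature plasmatocytes, had 1 to 5 reads in a library and was not tested. The line thus carried crq at 138 RPKM and srp at 32.8 RPKM, above 64.8% of tested genes with an exon length, with NimC1 close to 0.

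**Figure D5:**
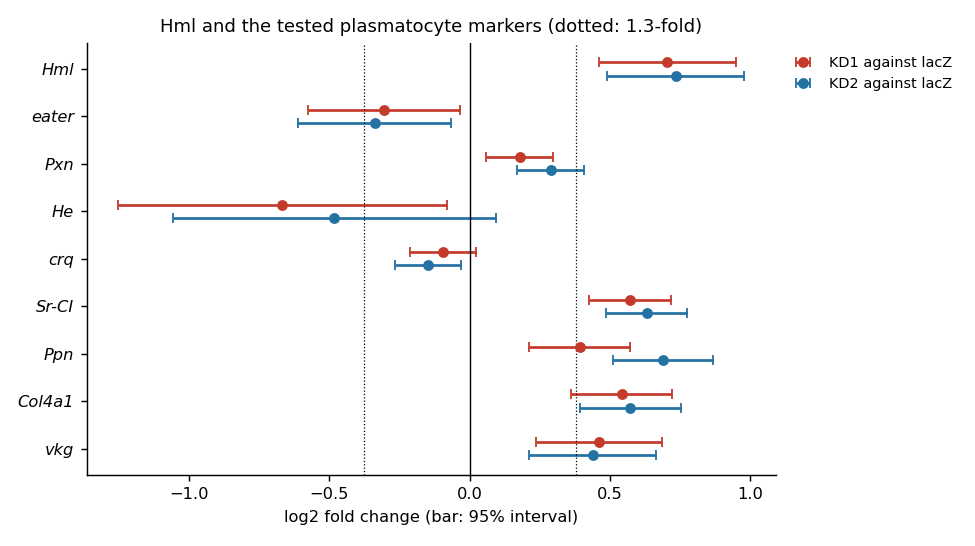
Log2 fold changes (x axis) of Hml and the 8 tested plasmatocyte markers in KD1 and KD2 against lacZ, with bars for the 95% interval (DESeq2) and dotted lines at a 1.3-fold change. Hml, Sr-CI, Col4a1, vkg and Ppn lie from 0.39 to 0.73, Pxn lies below the dotted line, and eater, He and crq have estimates from -0.67 to -0.10 that missed the threshold by DESeq2.

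The genes whose pattern over the 9 libraries was most like that of Hml were comt, Sr-CI and Usp12-46. Likeness was the root mean square difference of log2(normalised count + 1) after removing the mean of each gene, over 6586 genes with a mean above 5 CPM. It was 0.0703 for comt, 0.0937 for Sr-CI and 0.0958 for Usp12-46, beside a median of 0.363 over all genes compared. The gene comt, which encodes an NSF ATPase of membrane fusion, averaged 85.3 ± 11.1 normalised reads for lacZ, 131 ± 2.85 for KD1 and 132 ± 11.2 for KD2 (SD, n = 3 each). Its log2 fold change was 0.61 ± 0.16 (adjusted p = 0.00169) and 0.63 ± 0.16 (adjusted p = 0.00104). With the replicate number as a block in the DESeq2 fit, the adjusted p of comt was 0.0809 and 0.0768. The ubiquitin-specific protease gene Usp12-46 had 412 ± 19.0, 621 ± 15.5 and 657 ± 46.7, with 0.59 ± 0.08 (adjusted p = 2.43e-10) and 0.67 ± 0.08 (adjusted p = 1.96e-13). These genes were picked for their likeness to Hml, so their changes are a description.

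Markers of the other blood cell types did not pass the threshold in either knockdown. Of the crystal cell genes 2 were tested, of the lamellocyte genes 3 and of the genes of lymph gland progenitors and niche 4, and 0 of these 9 were past it by DESeq2. In KD1 1, 1 and 3 of them had an unadjusted p under 0.05, and in KD2 0, 1 and 2, beside 31.7% and 33.2% of all genes. By edgeR 1 crystal cell gene was past the threshold in KD1. The crystal cell factor gene peb had log2 changes of 0.02 (adjusted p = 0.933) and 0.03 (adjusted p = 0.92). PPO2, a prophenoloxidase gene of mature crystal cells, had -0.50 ± 0.22 in KD1 (adjusted p = 0.0804) and -0.02 ± 0.21 in KD2 (adjusted p = 0.962), from 38 to 80 reads per library, and was the gene that edgeR placed past the threshold in KD1 (adjusted p = 0.0383). The filamin gene cher, expressed in lamellocytes and many other cells, had -0.05 (adjusted p = 0.635) and -0.08 (adjusted p = 0.357). Of the 4 progenitor and niche genes 1 had a positive and 3 a negative change in each knockdown, with a median of -0.20 and -0.15. Tep4, a progenitor marker of the complement-like thioester protein family, was at 84.2 RPKM in lacZ. It changed by 0.29 ± 0.07 in KD1 (adjusted p = 0.000266) and 0.31 ± 0.07 in KD2 (adjusted p = 8.12e-05), both under 1.3-fold. The E-cadherin gene shg had changes of the opposite sign, -0.29 ± 0.08 (adjusted p = 0.00297) and -0.22 ± 0.08 (adjusted p = 0.0318), also under 1.3-fold. The cytokine receptor gene dome had -0.11 and -0.07 and the peptidase gene Ance -0.43 and -0.30, with adjusted p from 0.122 to 0.463. PPO3, the prophenoloxidase of lamellocytes, changed by -0.31 in KD2 (adjusted p = 0.0014), also under 1.3-fold, and the niche Hox gene Antp had 0 reads in each library.

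Glial genes were examined because gcm and gcm2 also act in glia. Of 7 listed, 4 were tested and 0 were past the threshold in KD1 or KD2 (DESeq2 and edgeR). At an unadjusted p under 0.05 stood 2 in KD1 and 3 in KD2, beside 31.7% and 33.2% of all genes. The defining glial genes repo and alrm had at most 2 and 3 reads in a library. The ETS factor gene pnt, which also acts outside glia, changed by 0.10 (adjusted p = 0.321) and 0.21 (adjusted p = 0.0145). The values of loco, an RGS protein gene, were 0.16 (adjusted p = 0.102) and 0.22 (adjusted p = 0.0105), while those of moody, a receptor gene of the blood-brain barrier, were -0.17 (adjusted p = 0.00385) and -0.13 (adjusted p = 0.0353), all under 1.3-fold. Among 10 marker genes of neurons, muscle, fat body and gonads, 8 were matched and 2 tested, and 0 were past the threshold (DESeq2 and edgeR; 1 in KD1 and 0 in KD2 at an unadjusted p under 0.05). The neuronal gene elav had 294 to 392 reads and changed by -0.22 (adjusted p = 0.0751) and -0.02 (adjusted p = 0.913). The muscle myosin gene Mhc, the flight muscle actin gene Act88F and the fat body genes Lsp1beta and Fbp1 had at most 5 reads in a library in every group.

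Some of the genes lie over other annotated genes, which could share reads with them in counting. Exons of srp overlap a long noncoding RNA gene on the same strand, lncRNA:CR44133, which had 40 reads in all libraries together. The ush gene overlaps cbt and lncRNA:CR46259 on the opposite strand without sharing exons, and 2 of its exons overlap lncRNA:CR46258 on the same strand. Neither of these long noncoding RNA genes was among the genes counted. The exon of gcm that overlaps CG31709 belongs to a gene with 0 reads. No overlap was annotated for Hml, Pvr or chinmo.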

How the data were processed

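Polyadenylated RNA was sequenced in paired ends from stranded libraries. The authors aligned reads to BDGP6 with STAR (version 2.5.1b) and counted them per gene with featureCounts (Subread version 1.4.6-p2), and the deposited values are these raw read counts, with 1 table per library and no normalisation. The strand setting of the counting is not given in the sources used here.

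Symbols were found for 98.3% of identifiers. Positions and exon lengths came from Ensembl release 115 of BDGP6. Genes with a mean CPM above 1 were kept and libraries were scaled with median-of-ratios factors of 0.9043 to 1.07. A DESeq2 model (version 1.42.0, R 4.3.3) covered the 9 libraries with a 3-level group factor. The Wald test, independent filtering and thresholds follow the study, which used an older version and an RPKM filter. P-values were adjusted by Benjamini-Hochberg over all genes, with an alpha of 0.1 for independent filtering, which gave an adjusted p to all genes against lacZ and to 2094 between KD1 and KD2. The procedure was tested on simulated data.

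The members and the 9 gene lists were chosen with earlier results of these data known. Of 72 listed genes, 66 were matched, and br, Imp, Nplp2, PPO1, vas and nos were not. Named were the members, Hrb98DE and Hrb87F, the listed genes past the threshold in both knockdowns (or else the most abundant of the list) and the 3 genes most like a changed member. Further genes, such as Pvf3, mbc, CtBP, GATAe, Eip93F, eater, He, crq, Pxn, PPO3, PPO2, shg, dome, Ance, moody, loco and the markers given by their reads, were added after values were seen.

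Alternatives were edgeR (version 4.0.16), TMM factors, no filter, fits of only the groups compared, a fold-change prior, a replicate block and leaving out each library. An RPKM filter and a correction for exon length, with and without the block, were chosen after seeing the data. GC content was not examined.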

Additional observations from a re-analysis of the deposited data

Results flagged for a closer look

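The comparison of KD1 with KD2 tests whether the dsRNAs against Hrb98DE acted alike, and 12 of the 7406 genes had a DESeq2 adjusted p under 0.05 in it, 1 of them past 1.3-fold. Adjusted p-values were given to 2094 genes. Among the genes examined here, 4 had an adjusted p under 0.05, and for Hrb87F this held in 18 of 18 alternatives, for chinmo in 6, for mbc in 5 and for CtBP in 2, with edgeR adjusted p of 0.404 for chinmo and CtBP and 0.377 for mbc. The log2 difference of chinmo was -0.22 ± 0.06 (SE; adjusted p = 0.0273), and all KD1 libraries lay below all KD2 libraries. Hrb87F, the relative of the targeted gene, differed by 0.84 ± 0.08 (adjusted p = 4.09e-22) with more mRNA left in KD1. CtBP, the gene of a corepressor that many repressors recruit, had 1677, 1532 and 1611 normalised reads in lacZ, 1704, 1742 and 1799.8 in KD1 and 1999, 1980.1 and 2109.6 in KD2, and differed by -0.22 ± 0.06 (adjusted p = 0.0366). The Rac activator gene mbc differed by -0.20 ± 0.05 (adjusted p = 0.0181). In chinmo, CtBP and mbc every KD2 library stood above every KD1 library, beside 14.1% of all genes without overlap in either direction. In the same libraries Hrb87F was lower in KD2, and the part of Hrb87F in these differences cannot be told apart from that of the dsRNA.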

How the results depend on the processing

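Over 18 alternatives, of which the RPKM filter and the exon length corrections were chosen after seeing the data, Hml kept its direction and stayed past the threshold in both knockdowns, and no other member passed the threshold. The genes past the threshold were 340 in KD1 and 392 in KD2 with a prior that shrinks fold changes, instead of 546 and 602, and edgeR gave 584 and 661. The listed genes past it in KD1 were 4 instead of 7 with the prior and also 4 with the block, and at most 9 over the alternatives. The plasmatocyte markers past it as higher in KD1 were 2 instead of 4 with the prior. Leaving out 1 library gave 409 to 627 genes in KD1, 448 to 706 in KD2 and 1 to 4 between KD1 and KD2, with 4 to 7 listed genes in KD1.

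A replicate block left 322 genes past the threshold in KD1 and 344 in KD2, and block plus exon length correction left 294 and 327. Hml was at 0.74 and 0.76 with the block, and 1 member passed the threshold as before. The calls of vkg (adjusted p = 0.0958 and 0.140), comt (0.0809 and 0.0768), GATAe in KD1 (0.292) and Eip93F in KD1 (0.309) were lost with the block, and mbc fell below 1.3-fold in KD2. Same-numbered libraries did not deviate together on average (mean correlation -0.06 over 6 pairs, 0.02 over 21 other pairs). The 6 pairs ranged from -0.34 to 0.16 and the others from -0.32 to 0.33, too few and too spread to exclude a pairing by number.

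Sign changes were seen only in values under the threshold, and their cause was not tested. The exon length correction, without and with the block, gave 0.042 and 0.0089 for srp in KD1, 0.075 and 0.085 for chinmo in KD1, 0.075 and 0.097 for Syp in KD1, 0.071 and 0.062 for cher in KD1, 0.021 and 0.059 for elav in KD2, and 0.068 and 0.081 for Hml between KD1 and KD2. It gave 0.016 for zfh1 in KD2 without the block and 0.0021 for ush between KD1 and KD2 with it, and elav in KD2 was 0.018 with the block alone. With the correction and no block, ush (adjusted p = 0.0340 in KD1 and 0.0311 in KD2) and Pvr in KD1 (0.0168) passed an adjusted p of 0.05 at 0.14, 0.14 and 0.11. Leaving out 1 library gave -0.084 to 0.00065 for srp in KD1, -0.0082 to 0.033 for Pvr in KD2, -0.0069 to 0.034 for Pvr and -0.10 to 0.068 for Hml between KD1 and KD2, -0.046 to 0.040 for zfh1 in KD2, -0.098 to 0.023 for Syp in KD1, -0.019 to 0.073 and -0.14 to 0.10 for peb in KD1 and KD2, and -0.053 to 0.0079 for elav in KD2. Depth limits lz, gcm, gcm2 and kn, which were below the filter and untested.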
